A study of Mus musculus with 30 samples.

Results

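The genes described here are 40 genes of DNA replication and nucleotide synthesis: the replicative helicase, its activators, origin licensing factors, the sliding clamp and its loader, DNA polymerases, enzymes that make deoxynucleotides, and factors that assemble or control the new chromatin. They were taken as a list of gene symbols, and all 40 were among the 19938 genes that had a probe set annotated to 1 symbol. A gene with several such probe sets was read from the one with the highest mean. RNA of both spleen and lymph node was hybridised to Affymetrix Mouse Gene 1.0 ST arrays, which measure transcripts with short probes spread along each gene. There were 30 arrays from 15 mice, with 1 spleen and 1 lymph node array per mouse. The groups were 6 Tg26-Lymphoma mice, 6 Tg26-Asymptomatic mice and 3 FVB/N control mice, called lymphoma, asymptomatic and FVB/N from here on.

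Tg26 mice carry a transgene of the HIV-1 provirus pNL4-3 from which part of gag-pol has been removed, so that no infectious virus is made. They were heterozygous on the FVB/N background, and the lymphoma colony came from crosses of heterozygous mice that had skin lesions. All animals were killed between 5 and 12 months of age, with no age, sex or tumour size given per mouse. Lymphoma arises in only a share of Tg26 mice, so an asymptomatic mouse may or may not have gone on to develop one. Levels are the deposited log2 values, on which a difference of 1 is a doubling. Levels are given as lowest, median and highest for the groups of 6 and for mice 1, 2 and 3 in the FVB/N group. A level belongs to its own probe set, and levels of different genes are not set against each other. Differences are fitted log2 differences with their standard error (SE) from limma, adjusted over all genes, and a gene is said to have risen or fallen only at an adjusted p under 0.05. Since whole tissue was measured, more cells in S phase and more RNA per cell cannot be told apart.

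Before a cell copies its DNA, the origin recognition complex with Cdc6 and Cdt1 loads the Mcm2 to Mcm7 helicase onto origins, and Cdc45 and the GINS complex turn the loaded ring into an active helicase. Polymerases, the PCNA clamp and its RFC loader then extend the new strands from primase-made primers, while ribonucleotide reductase and thymidylate synthase supply the precursors. Most of these genes are transcribed as cells enter S phase, under E2F transcription factors, and resting lymphocytes of spleen and lymph node express many of them weakly.

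Several facts of the series bear on these values. The labels name a batch for each array without saying what it was. Batch A held mice 1 to 3 of every group and batch B mice 4 to 6 of the lymphoma and asymptomatic groups, so batch B had no FVB/N mouse. For lymphoma mouse 4 the labels of the spleen array disagree, its status code being that of FVB/N and its title and description naming lymphoma. It was analysed with the lymphoma spleens. The mean level of 6 T cell markers was 5.82 to 7.13 in lymphoma spleens, against 9.63 to 9.86 in asymptomatic and 9.58 to 9.67 in FVB/N spleens. All 6 fell in both tissues of lymphoma mice relative to asymptomatic mice. Early B precursor markers had a mean of 8.91 to 9.71 in lymphoma spleens, against 6.24 to 6.40 in asymptomatic and 6.35 to 6.46 in FVB/N spleens, and 5 of 6 rose in each tissue. The mean of 6 mature B cell markers was 9.23 to 10.62 in lymphoma spleens, against 11.21 to 11.72 in asymptomatic spleens, and in spleen 3 of the 6 fell and none rose. In lymph node their mean was 9.01 to 10.17 in lymphoma, against 10.18 to 11.23 in asymptomatic and 10.23 to 10.72 in FVB/N mice, where 3 fell and 2 rose. The 4 measured germinal centre markers had a mean of 5.87 to 5.98 in lymphoma spleens, against 6.39 to 6.72 in asymptomatic and 6.24 to 6.33 in FVB/N spleens, and 2 of them fell in each tissue. Their node mean was 5.86 to 6.58 in lymphoma, against 6.46 to 7.61 in asymptomatic and 6.45 to 8.51 in FVB/N mice. Of 5 plasma cell markers 3 rose in each tissue, and their mean was 7.88 to 9.44 in lymphoma spleens, against 8.71 to 9.07 in asymptomatic and 8.67 to 9.01 in FVB/N spleens. Erythroid markers, which mark another proliferating cell type, had a mean of 6.43 to 9.89 in lymphoma spleens and 7.12 to 8.31 in asymptomatic spleens. It was 7.55 to 8.68 in FVB/N spleens. In lymph node this mean was 6.43 to 7.31 in lymphoma, against 5.97 to 9.25 in asymptomatic and 5.92 to 6.15 in FVB/N mice. Of the 7 markers, which include Tfrc, 3 rose in each tissue. In 10 arrays, 7 of them asymptomatic or FVB/N nodes, salivary gland, pancreas or fat and muscle transcripts were also high. The mean of 12 fat and muscle markers was 6.12 to 6.41 in lymphoma nodes, against 6.48 to 10.19 in asymptomatic and 6.11 to 8.67 in FVB/N nodes. The mean of 5 macrophage markers was 7.11 to 9.74 in lymphoma spleens, against 9.15 to 9.61 in asymptomatic and 8.14 to 8.21 in FVB/N spleens. In lymph node it was 7.10 to 8.46 in lymphoma, against 7.50 to 10.22 in asymptomatic and 7.59 to 9.53 in FVB/N mice. The part of these cell types in the results below was not tested.

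The comparison of lymphoma with asymptomatic mice asks what distinguishes diseased from healthy-looking carriers of the same transgene. Nearly the whole replication set was higher in lymphoma tissue. In spleen 34 of the 40 genes rose and none fell, where 8.58% of all genes rose. In lymph node 38 of the 40 rose and none fell, against 11.6% of all genes. The median fitted difference over the 40 genes was 1.04 in spleen and 1.43 in lymph node, and over all genes it was -0.03 and -0.02. The largest differences were those of Rrm2, at 2.0 ± 0.24 in spleen and 2.75 ± 0.26 in lymph node (SE, n = 6 against 6 mice).

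For 28 of the 40 genes every lymphoma spleen lay above every asymptomatic spleen, which held for 4.59% of all genes. In lymph node this was so for 34 of the 40, against 5.04% of all genes. Within batch A, 36 genes rose in spleen and 36 in lymph node, and within batch B the numbers were 30 and 38. Without the spleen array of lymphoma mouse 4, 37 genes rose in spleen and 38 in lymph node. Without the 10 arrays that carried neighbouring-tissue transcripts, 33 genes rose in spleen and 21 in lymph node. That comparison had only 1 asymptomatic node left, and all 40 node differences in it were above 0, with a median of 1.13.

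**Figure D1:**
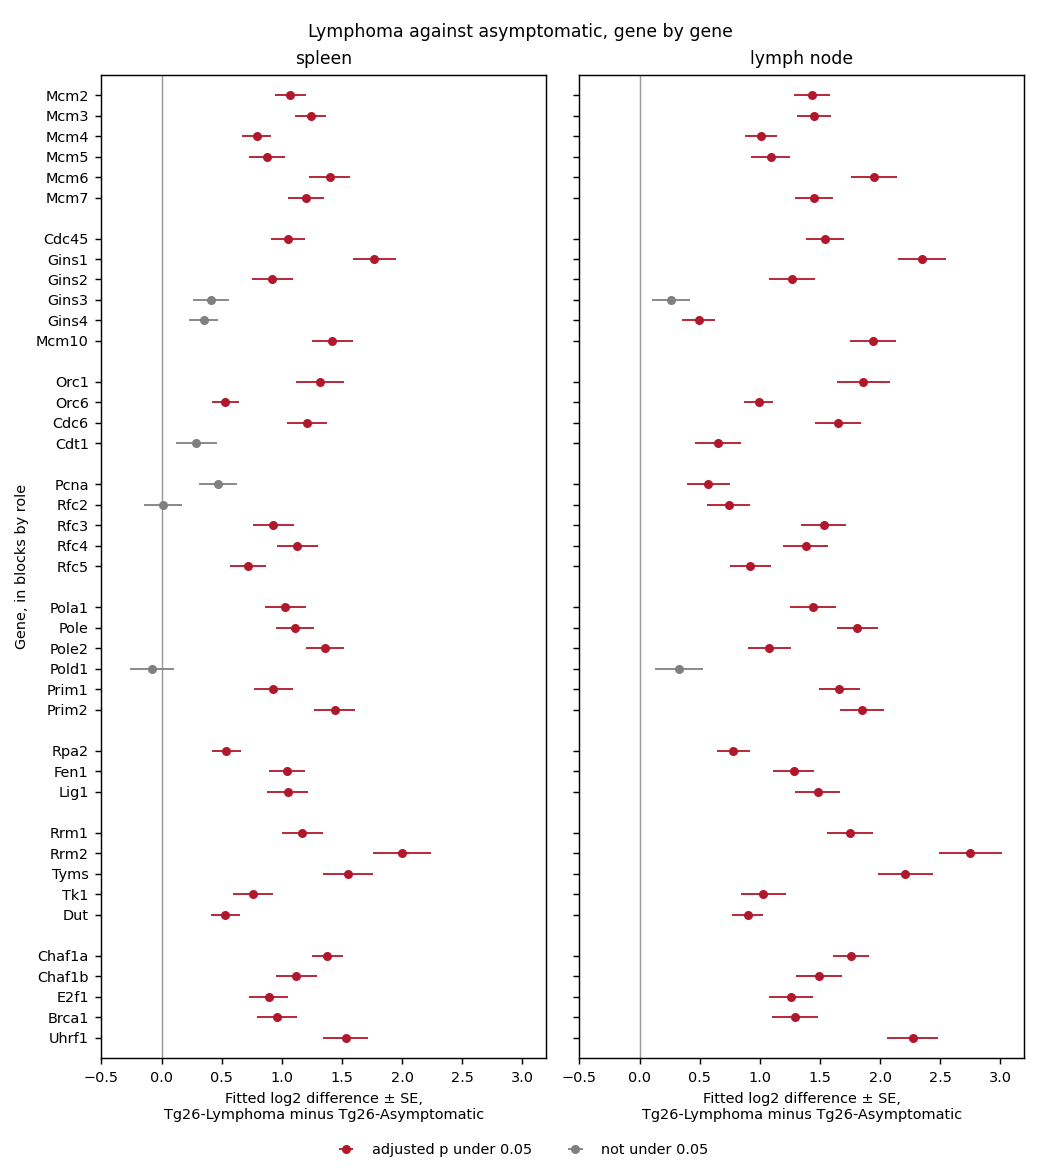
Fitted log2 difference between lymphoma and asymptomatic mice (x axis, lymphoma minus asymptomatic) for each of the 40 genes in spleen (left) and lymph node (right), with bars for ± 1 SE and genes in blocks by role. Red points had an adjusted p under 0.05, which was so for 34 genes in spleen and 38 in lymph node; the grey points are Cdt1, Gins3, Gins4, Pcna, Rfc2 and Pold1 in spleen and Gins3 and Pold1 in lymph node.

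Since E2F factors act through short promoter elements, the windows from 250 bases before to 50 bases after the annotated starts were searched in the RefSeq promoter table (GRCm38.p6). Windows were given for 33 of the 40 genes, and Mcm4, Gins1, Gins2, Gins4, Rfc2, Pole and Prim2 were not searched. The letters TTTCCCGC, TTTCGCGC, TTTGCCGC or TTTGGCGC, on either strand, were held by 14 of the 33 genes (42.4%). Among the 15614 measured genes with a window, 543 held them (3.5%). Matches on the 2 strands overlapped each other in Mcm5 and Mcm6. CCAAT, on either strand, was held by 20 of the 33 genes (60.6%) against 41.7% of the measured genes. The stretches of 100 bases below show the matching promoter of the gene with the smallest spleen adjusted p, among those with a match before the start, in each role that had one, written 5′ to 3′ along the gene's strand, with the matching letters in capitals:
Mcm7 (chr5:138171995-138172094, minus strand): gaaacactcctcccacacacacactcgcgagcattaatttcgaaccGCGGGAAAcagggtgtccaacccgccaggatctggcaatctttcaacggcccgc
Gins3 (chr8:95633459-95633558, plus strand): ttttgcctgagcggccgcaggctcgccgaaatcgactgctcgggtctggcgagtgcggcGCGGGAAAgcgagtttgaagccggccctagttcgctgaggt
Cdc6 (chr11:98907967-98908066, plus strand): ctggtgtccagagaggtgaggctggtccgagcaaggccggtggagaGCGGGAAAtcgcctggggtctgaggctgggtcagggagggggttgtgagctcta
Rfc3 (chr5:151651209-151651308, minus strand): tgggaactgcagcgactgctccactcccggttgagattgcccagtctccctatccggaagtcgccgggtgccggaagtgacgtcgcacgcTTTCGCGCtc
Pola1 (chrX:93632240-93632339, minus strand): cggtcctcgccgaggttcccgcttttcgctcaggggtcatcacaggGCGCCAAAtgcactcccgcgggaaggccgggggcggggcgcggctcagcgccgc
Uhrf1 (chr17:56304082-56304181, plus strand): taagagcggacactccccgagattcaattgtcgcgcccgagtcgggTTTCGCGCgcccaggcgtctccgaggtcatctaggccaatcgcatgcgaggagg
In Mcm7, a helicase subunit, the match began 165 bases before the start, and in Pola1 and Cdc6 138 bases before it. The one in Rfc3 began 10 bases before the start. Mcm7 and Uhrf1 had 2 windows each, and the start meant is that of the window shown. The stretches of Mcm7, Cdc6, Pola1 and Uhrf1 lay within the annotated span of their genes. Of the 14 genes that held the letters 11 rose in lymphoma over asymptomatic spleens, as did 18 of the 19 searched genes that did not hold them, and in lymph node the numbers were 12 of 14 and 19 of 19. A match is a description of these windows, not evidence that a factor binds there.

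All 6 subunits of the MCM helicase, the ring that unwinds DNA ahead of the fork, rose in both tissues. Their fitted differences ran from 0.79 (Mcm4) to 1.40 (Mcm6) in spleen and from 1.01 (Mcm4) to 1.95 (Mcm6) in lymph node. The levels of Mcm3 were 9.27, 9.81 and 10.12 in lymphoma spleens, against 8.06, 8.40 and 8.45 in asymptomatic and 8.60, 8.34 and 8.27 in FVB/N spleens. No lymphoma spleen was as low as any other spleen. It rose by 1.24 ± 0.13 there (adjusted p = 2.99e-07). In lymph node its levels were 9.38, 9.73 and 10.07 in lymphoma nodes, against 7.97, 8.22 and 8.47 in asymptomatic and 8.56, 8.25 and 8.32 in FVB/N nodes, again with no overlap, and it rose by 1.45 ± 0.14 (adjusted p = 6.96e-08). Mcm5 had the weakest evidence of the ring in spleen, with levels of 9.33, 9.89 and 10.66 in lymphoma spleens, against 8.71, 9.01 and 9.47 in asymptomatic and 9.55, 9.10 and 9.16 in FVB/N spleens. The lymphoma and asymptomatic spleens overlapped at the edge, where lymphoma mouse 5 was lowest, and the fitted rise was 0.88 ± 0.15 (adjusted p = 0.000157). Its node levels were 9.69, 9.91 and 10.21 in lymphoma nodes, against 8.37, 8.69 and 9.34 in asymptomatic and 9.38, 8.76 and 8.93 in FVB/N nodes, which did not overlap, and the rise was 1.09 ± 0.16. Mcm2 rose by 1.07 ± 0.13 in spleen and 1.43 ± 0.15 in lymph node. Mcm7, whose promoter stretch is shown above, rose by 1.20 ± 0.15 and 1.45 ± 0.16.

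The partners that turn the ring into a working helicase moved unequally. Cdc45, Gins1, Gins2 and Mcm10 rose in both tissues, whereas of the GINS subunits Gins3 passed the test in neither tissue and Gins4 did not pass in spleen. The levels of Gins1 were 8.02, 8.47 and 8.75 in lymphoma spleens, against 6.46, 6.52 and 6.63 in asymptomatic and 6.34, 6.36 and 6.27 in FVB/N spleens. The gap between the lowest lymphoma spleen and the highest other spleen was wider than the range within any of the 3 groups. Gins1 rose by 1.77 ± 0.18 in spleen (adjusted p = 2.99e-07) and by 2.35 ± 0.20 in lymph node (adjusted p = 1.22e-08). Its node levels were 7.97, 8.33 and 8.92 in lymphoma nodes, against 5.74, 6.33 and 6.73 in asymptomatic and 6.10, 6.45 and 6.74 in FVB/N nodes, with no overlap. Gins4 stood at 8.74, 9.22 and 9.98 in lymphoma spleens, against 8.82, 8.93 and 9.10 in asymptomatic and 9.29, 9.06 and 8.93 in FVB/N spleens. Only the upper 3 lymphoma spleens, mice 1, 2 and 3 of batch A, exceeded all asymptomatic ones, and the difference was 0.35 ± 0.12 (adjusted p = 0.0643). This difference passed under 14 of 26 alternatives. The Gins4 levels were 8.97, 9.08 and 9.33 in lymphoma nodes, against 8.34, 8.61 and 9.10 in asymptomatic and 9.29, 9.15 and 9.16 in FVB/N nodes. FVB/N nodes thus lay within the lymphoma range, and against asymptomatic nodes Gins4 rose by 0.49 ± 0.14 (adjusted p = 0.0117). This call passed under 19 of 26 alternatives. It was lost without lymphoma mouse 1 (0.39, adjusted p = 0.0698), asymptomatic mouse 4 (0.32, adjusted p = 0.22) or asymptomatic mouse 5 (0.43, adjusted p = 0.0562), within batch A (0.33, adjusted p = 0.129), and without the arrays with neighbouring-tissue transcripts (0.03, adjusted p = 0.975).

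Gins3, another subunit of the same tetramer, stood at 7.14, 7.58 and 7.76 in lymphoma spleens, against 6.81, 7.10 and 7.31 in asymptomatic and 7.33, 6.83 and 7.02 in FVB/N spleens. The groups overlapped, with a difference of 0.41 ± 0.15 in spleen (adjusted p = 0.0605) and 0.26 ± 0.16 in lymph node (adjusted p = 0.294). The measured node means differed by more, 7.48 ± 0.20 in lymphoma and 7.02 ± 0.14 in asymptomatic mice (SD, n = 6 each), and without surrogate variables the node difference of 0.47 passed the test. The Gins3 difference passed under 17 of 26 alternatives in spleen and 7 of 26 in lymph node. Lymphoma and asymptomatic mice with the same number shared a batch. With mouse number as a block in place of surrogate variables, Gins3 passed in spleen (0.42, adjusted p = 0.0186) and lymph node (0.47, adjusted p = 0.0058), and Gins4 passed in spleen (0.33, adjusted p = 0.0318). Cdc45 rose by 1.05 ± 0.14 in spleen and 1.54 ± 0.16 in lymph node. Gins2 rose by 0.92 ± 0.17 and 1.27 ± 0.19, and Mcm10, a fork scaffold, by 1.42 ± 0.17 and 1.94 ± 0.19.

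**Figure D2:**
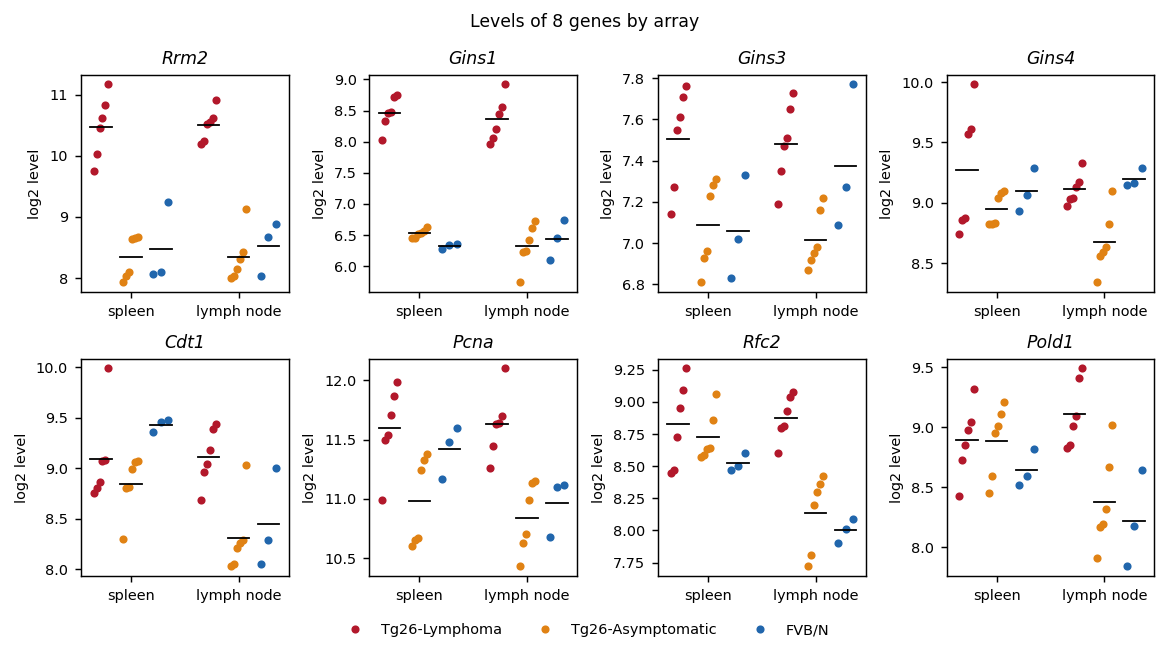
Log2 levels of 8 genes (y axis, a scale of its own in each panel) in every array, in spleen and lymph node, with lymphoma, asymptomatic and FVB/N mice from left to right and the group mean as a black line. Rrm2 and Gins1 separate lymphoma from the other arrays in both tissues, while in spleen the lymphoma and asymptomatic arrays overlap for Gins3, Gins4, Cdt1, Pcna, Rfc2 and Pold1.

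Of the 4 licensing factors, Orc1, Orc6 and Cdc6 rose in spleen and all 4 rose in lymph node. Cdc6, the ATPase that joins the origin complex to load the helicase, stood at 7.67, 8.12 and 8.59 in lymphoma spleens, against 6.79, 6.96 and 7.13 in asymptomatic and 7.37, 6.74 and 6.88 in FVB/N spleens. Lymphoma spleens did not overlap the others, and Cdc6 rose by 1.21 ± 0.17 (adjusted p = 1.5e-05). In lymph node the levels were 7.92, 7.99 and 8.37 in lymphoma nodes, against 6.31, 6.53 and 7.16 in asymptomatic and 6.62, 6.38 and 6.61 in FVB/N nodes, without overlap, and the rise was 1.65 ± 0.19. Cdt1, the partner that brings the helicase to the origin, did not pass in spleen, with levels of 8.76, 8.97 and 9.99 in lymphoma spleens, against 8.30, 8.91 and 9.07 in asymptomatic and 9.36, 9.46 and 9.48 in FVB/N spleens. Lymphoma and asymptomatic spleens overlapped, apart from lymphoma mouse 1 at 9.99 and mouse 3 at 9.08, just above the asymptomatic highest of 9.07. The FVB/N spleens lay above all asymptomatic spleens and above 5 of the 6 lymphoma spleens. The Cdt1 difference from asymptomatic spleens was 0.29 ± 0.17 (adjusted p = 0.282), and from FVB/N spleens -0.12 ± 0.21 (adjusted p = 0.798). The former passed under 2 of 26 alternatives. Node levels of Cdt1 were 8.69, 9.11 and 9.44 in lymphoma nodes, against 8.03, 8.23 and 9.03 in asymptomatic and 9.0, 8.05 and 8.29 in FVB/N nodes, with asymptomatic mouse 1 and FVB/N mouse 1 inside the lymphoma range. It rose there by 0.65 ± 0.19 (adjusted p = 0.0136), a call that passed under 18 of 26 alternatives. It was lost without lymphoma mouse 1 (0.37, adjusted p = 0.206), mouse 2 (0.60, adjusted p = 0.0563) or mouse 6 (0.53, adjusted p = 0.0855) or asymptomatic mouse 4 (0.34, adjusted p = 0.44), within batch A (0.66, adjusted p = 0.167), and without the arrays with neighbouring-tissue transcripts (0.08, adjusted p = 0.936). Orc1, the largest origin complex subunit, rose by 1.32 ± 0.20 in spleen and 1.86 ± 0.22 in lymph node. Orc6 rose by 0.53 ± 0.11 and 0.99 ± 0.12.

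The clamp and its loader had the smallest median rise of the roles in spleen, 0.72, with 3 of 5 genes past the threshold, and in lymph node a median of 0.92 with all 5 past it. Rfc4, a small loader subunit, stood at 8.72, 9.41 and 10.31 in lymphoma spleens, against 7.92, 8.35 and 8.63 in asymptomatic and 8.51, 8.53 and 8.61 in FVB/N spleens. The lymphoma spleens were spread widely, from batch B mouse 6 to batch A mouse 1, yet none overlapped the others, and the rise was 1.13 ± 0.17 (adjusted p = 5.64e-05). Its node levels were 9.04, 9.34 and 9.47 in lymphoma nodes, against 7.92, 8.08 and 8.42 in asymptomatic and 8.51, 8.70 and 8.77 in FVB/N nodes, without overlap, and the rise was 1.38 ± 0.19. Rfc2, a subunit of the same loader, stood at 8.45, 8.84 and 9.26 in lymphoma spleens, against 8.57, 8.64 and 9.06 in asymptomatic and 8.47, 8.50 and 8.60 in FVB/N spleens. Lymphoma and asymptomatic spleens covered much the same range, and the difference was 0.01 ± 0.16 (adjusted p = 0.973). In lymph node Rfc2 levels were 8.60, 8.87 and 9.08 in lymphoma nodes, against 7.72, 8.25 and 8.42 in asymptomatic and 8.01, 7.90 and 8.09 in FVB/N nodes. There the lymphoma nodes lay above all others, and Rfc2 rose by 0.74 ± 0.18 (adjusted p = 0.00277). The call was lost without lymphoma mouse 1 (0.54, adjusted p = 0.0502), asymptomatic mouse 4 (0.65, adjusted p = 0.063) or the arrays with neighbouring-tissue transcripts (0.45, adjusted p = 0.368). Rfc3 rose by 0.93 ± 0.17 in spleen and 1.53 ± 0.19 in lymph node, and Rfc5 by 0.72 ± 0.15 and 0.92 ± 0.17. Rfc5 passed under 21 of 26 alternatives in spleen and 24 of 26 in lymph node. Its spleen call was lost with no surrogate variables (0.64, adjusted p = 0.17), within batch B (0.46, adjusted p = 0.0646) and without the arrays with neighbouring-tissue transcripts (0.40, adjusted p = 0.493), and in lymph node without those arrays its difference was 0.10 (adjusted p = 0.948).

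Pcna, the sliding clamp itself, had mean levels of 11.60 ± 0.35 in lymphoma spleens, 10.98 ± 0.38 in asymptomatic spleens and 11.42 ± 0.22 in FVB/N spleens (SD, n = 6, 6 and 3). The groups overlapped, and the difference from asymptomatic spleens was 0.47 ± 0.16 (adjusted p = 0.0537). This difference passed under 18 of 26 alternatives. In lymph node Pcna rose by 0.57 ± 0.18 (adjusted p = 0.0243), a call lost under 6 of 26 alternatives. Among these were the fits without lymphoma mouse 1 (0.51, adjusted p = 0.0613), asymptomatic mouse 1 (0.43, adjusted p = 0.203) or asymptomatic mouse 4 (0.59, adjusted p = 0.092), with quantile normalization (0.53, adjusted p = 0.0616) and without the arrays with neighbouring-tissue transcripts (0.57, adjusted p = 0.324). A further Pcna probe set read 11.19 ± 0.24 in lymphoma spleens and 10.51 ± 0.21 in asymptomatic spleens. With both probe sets averaged the spleen difference was 0.52 and passed the test, and it passed with mouse number as a block, at 0.62 (adjusted p = 0.000382). Whether either probe set also reads a related copy of Pcna was not tested.

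Among polymerases and primase, 5 of 6 genes rose in each tissue, and Pold1 was the exception in both. Prim2, the large primase subunit, stood at 9.31, 9.44 and 10.02 in lymphoma spleens, against 8.03, 8.31 and 8.57 in asymptomatic and 8.55, 8.28 and 8.41 in FVB/N spleens. The groups did not overlap, and Prim2 rose by 1.44 ± 0.17 (adjusted p = 1.53e-06). Its node levels were 9.06, 9.67 and 9.84 in lymphoma nodes, against 7.83, 8.0 and 8.40 in asymptomatic and 8.28, 7.95 and 8.38 in FVB/N nodes, also apart, with a rise of 1.85 ± 0.18. Pold1, the catalytic subunit of polymerase delta, which extends the lagging strand, stood at 8.43, 8.92 and 9.32 in lymphoma spleens, against 8.45, 8.98 and 9.21 in asymptomatic and 8.82, 8.59 and 8.52 in FVB/N spleens. Lymphoma and asymptomatic spleens had the same mean, 8.89 ± 0.30 in both (SD, n = 6 each), and the fitted difference was -0.08 ± 0.18 (adjusted p = 0.839), with a sign that changed with the settings. The Pold1 levels were 8.83, 9.05 and 9.49 in lymphoma nodes, against 7.91, 8.26 and 9.02 in asymptomatic and 8.64, 7.84 and 8.18 in FVB/N nodes. The lymphoma nodes lay above all but asymptomatic mouse 1, with a fitted difference of 0.33 ± 0.20 (adjusted p = 0.261). The measured means there differed by 0.73, which passed the test with mouse number as a block (adjusted p = 1.17e-05) and when no surrogate variables were used. The node difference of Pold1 passed under 9 of 26 alternatives. Pole, the catalytic subunit of polymerase epsilon on the leading strand, rose by 1.11 ± 0.16 in spleen and 1.81 ± 0.17 in lymph node. Pole2, its accessory subunit, rose by 1.36 ± 0.16 and 1.08 ± 0.18. Pola1, which extends the primers, rose by 1.03 ± 0.17 and 1.44 ± 0.19, and Prim1, the catalytic primase subunit, by 0.93 ± 0.16 and 1.66 ± 0.17.

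Single-strand binding and Okazaki fragment processing were covered by 3 genes, all of which rose in both tissues. Fen1, the nuclease that trims flaps of Okazaki fragments, stood at 8.55, 8.70 and 9.53 in lymphoma spleens, against 7.57, 7.82 and 7.94 in asymptomatic and 8.18, 7.47 and 7.46 in FVB/N spleens. No lymphoma spleen overlapped the others, although the FVB/N spleens were themselves spread, and Fen1 rose by 1.04 ± 0.15 (adjusted p = 2.77e-05). Its node levels were 8.39, 8.77 and 8.82 in lymphoma nodes, against 6.90, 7.52 and 7.85 in asymptomatic and 7.68, 7.25 and 7.08 in FVB/N nodes, without overlap, and the rise was 1.28 ± 0.17. Rpa2, a subunit of the protein that coats single-stranded DNA, changed less, with 8.66, 8.96 and 9.55 in lymphoma spleens, against 8.35, 8.44 and 8.48 in asymptomatic and 8.64, 8.41 and 8.42 in FVB/N spleens. The lowest lymphoma spleen lay just above the highest FVB/N spleen, and the rise was 0.54 ± 0.12 (adjusted p = 0.00313). In lymph node Rpa2 levels were 8.78, 8.94 and 9.43 in lymphoma nodes, against 7.95, 8.06 and 8.46 in asymptomatic and 8.47, 7.76 and 8.19 in FVB/N nodes, apart from each other, and the rise was 0.78 ± 0.14. Lig1, the ligase that seals the fragments, rose by 1.05 ± 0.17 in spleen and 1.48 ± 0.19 in lymph node.

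The 5 nucleotide synthesis genes all rose in both tissues, by a median of 1.17 in spleen and 1.75 in lymph node. Rrm2 encodes the small subunit of ribonucleotide reductase, which is made around S phase. Its levels were 9.75, 10.54 and 11.17 in lymphoma spleens, against 7.93, 8.37 and 8.68 in asymptomatic and 9.24, 8.10 and 8.07 in FVB/N spleens. All lymphoma spleens exceeded the others, FVB/N mouse 1 being the nearest, and Rrm2 rose by 2.0 ± 0.24 (adjusted p = 2.04e-06). In lymph node the levels were 10.20, 10.54 and 10.92 in lymphoma nodes, against 8.0, 8.22 and 9.13 in asymptomatic and 8.03, 8.88 and 8.67 in FVB/N nodes, with lymphoma again apart, and the rise of 2.75 ± 0.26 was the largest of the 40 genes there (adjusted p = 5.41e-08). Dut, which removes dUTP so that uracil is not built into DNA, had the weakest evidence of the 5 in spleen, with 7.79, 8.22 and 8.34 in lymphoma spleens, against 7.24, 7.47 and 7.83 in asymptomatic and 7.37, 7.33 and 7.42 in FVB/N spleens. The ranges touched, lymphoma mouse 5 lying below the highest asymptomatic spleen, and Dut rose by 0.53 ± 0.12 (adjusted p = 0.00303). Node levels of Dut were 8.14, 8.30 and 8.44 in lymphoma nodes, against 7.13, 7.27 and 7.43 in asymptomatic and 7.48, 7.65 and 7.48 in FVB/N nodes, apart, with a rise of 0.90 ± 0.13. Rrm1, the large reductase subunit, rose by 1.17 ± 0.17 in spleen and 1.75 ± 0.19 in lymph node. Tyms, which makes thymidylate, rose by 1.55 ± 0.21 and 2.21 ± 0.23, and the salvage kinase Tk1 by 0.76 ± 0.17 and 1.03 ± 0.19. The probe set of Tk1 used here read 9.13 ± 0.38 in lymphoma and 8.32 ± 0.20 in asymptomatic spleens, and another read 7.78 ± 0.41 and 7.44 ± 0.23 in the same groups (SD, n = 6 each). In lymph node the one used read 9.0 ± 0.30 in lymphoma and 8.20 ± 0.35 in asymptomatic mice, and the other 7.67 ± 0.25 and 6.92 ± 0.47. Within batch B the Tk1 call was lost in spleen (0.68, adjusted p = 0.149) and in lymph node (0.65, adjusted p = 0.106).

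The 5 genes of chromatin assembly and control also rose in both tissues. Chaf1a, the large subunit of the assembly factor that places histones on new DNA, stood at 8.22, 8.54 and 8.87 in lymphoma spleens, against 6.97, 7.08 and 7.21 in asymptomatic and 7.05, 6.72 and 6.63 in FVB/N spleens. The lymphoma spleens lay far above the rest, and the rise of 1.38 ± 0.13 had the smallest adjusted p of the 40 genes in spleen (1.06e-07). Its node levels were 8.41, 8.70 and 8.82 in lymphoma nodes, against 6.89, 7.01 and 7.35 in asymptomatic and 6.84, 7.18 and 7.02 in FVB/N nodes, likewise apart, with a rise of 1.76 ± 0.15 (adjusted p = 8.03e-09). E2f1, the transcription factor of S phase entry, stood at 7.57, 8.08 and 8.97 in lymphoma spleens, against 6.88, 7.17 and 7.56 in asymptomatic and 7.75, 7.41 and 7.29 in FVB/N spleens. Lymphoma mouse 5 lay just above the highest asymptomatic spleen and below the highest FVB/N spleen, and E2f1 rose by 0.89 ± 0.16 (adjusted p = 0.000336). In lymph node the levels were 7.92, 8.17 and 8.82 in lymphoma nodes, against 6.89, 7.0 and 7.71 in asymptomatic and 7.15, 7.63 and 7.30 in FVB/N nodes, which did not overlap, and the rise was 1.26 ± 0.18. Uhrf1, which reads hemimethylated DNA behind the fork, rose by 1.53 ± 0.19 in spleen and 2.27 ± 0.21 in lymph node. Chaf1b rose by 1.12 ± 0.17 and 1.49 ± 0.19, and the repair gene Brca1 by 0.96 ± 0.17 and 1.29 ± 0.19.

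The unequal change within roles was examined further in lymph node. In each role the genes with the smallest and the largest adjusted p in spleen formed a pair, so the spleen difference within a pair follows from the choice and was not tested. The log2 ratio of the pair was then compared between lymphoma and asymptomatic nodes of the same mice, with a two-sided exact permutation test over 6 against 6 nodes, adjusted over 8 pairs. The smallest p this design allows is 0.00216. The ratio of Gins1 to Gins4 was 1.59 higher on the log2 scale in lymphoma nodes (exact p = 0.00216, adjusted p = 0.00866). That of Prim2 to Pold1 was 0.84 higher (exact p = 0.00216, adjusted p = 0.00866), and that of Rrm2 to Dut 1.16 higher (exact p = 0.00433, adjusted p = 0.0115). For Cdc6 over Cdt1 it was 0.67 higher (exact p = 0.00866, adjusted p = 0.0173). The ratios of Fen1 to Rpa2 (0.35 higher, adjusted exact p = 0.0208), Chaf1a to E2f1 (0.52, adjusted exact p = 0.0433) and Rfc4 to Rfc2 (0.40, adjusted exact p = 0.0495) also passed. The ratio of Mcm3 to Mcm5 was 0.26 higher and did not pass (exact p = 0.175, adjusted p = 0.175). These ratios used the deposited levels without surrogate variables, and the permutations were not kept within batches. Of the asymptomatic nodes, only that of mouse 1 was free of high neighbouring-tissue transcripts. Deviations of node and spleen of 1 mouse correlated over genes at 0.29 to 0.68 in lymphoma and 0.14 to 0.50 in asymptomatic mice. The node tests are thus not independent of the spleen values that chose the pairs.

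The lymphoma mice differed among themselves. The mean level of the 40 genes was 8.57 to 9.63 in lymphoma spleens, against 7.82 to 8.17 in asymptomatic and 7.98 to 8.30 in FVB/N spleens. Lymphoma mouse 5 had the lowest spleen level for 32 of the 40 genes and mouse 1 the highest for 33. The spleen of mouse 5 exceeded every asymptomatic spleen for 28 of the 40 genes, against 17.0% of all genes, and that of mouse 1 for 39, against 24.6%. In lymph node the mean was 8.91 to 9.42 in lymphoma, against 7.61 to 7.98 in asymptomatic and 7.93 to 8.02 in FVB/N mice. There mouse 6 was highest for 26 genes and mouse 5 lowest for 18. The median SD over the 40 genes was 0.40 in lymphoma spleens, 0.24 in asymptomatic and 0.20 in FVB/N spleens, and it was 0.28, 0.29 and 0.19 in the nodes of the same groups. Asymptomatic spleens also differed by batch, with means of 8.11 to 8.17 in batch A and 7.82 to 7.89 in batch B. Asymptomatic nodes overlapped between the batches, at 7.75 to 7.98 in batch A and 7.61 to 7.91 in batch B. Among FVB/N spleens, mouse 1 was highest for 32 of the 40 genes, with a mean of 8.30 against 7.98 and 8.01 in mice 2 and 3. The erythroid marker mean was highest in the spleens of lymphoma mouse 1 (9.89) and mouse 5 (8.75), the highest and the lowest spleen for most of the 40 genes. Mature B cell markers were highest in the spleen of mouse 5, at 10.62 against 9.23 to 9.85 in the other lymphoma spleens, and their part in its lower level was not tested.

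**Figure D3:**
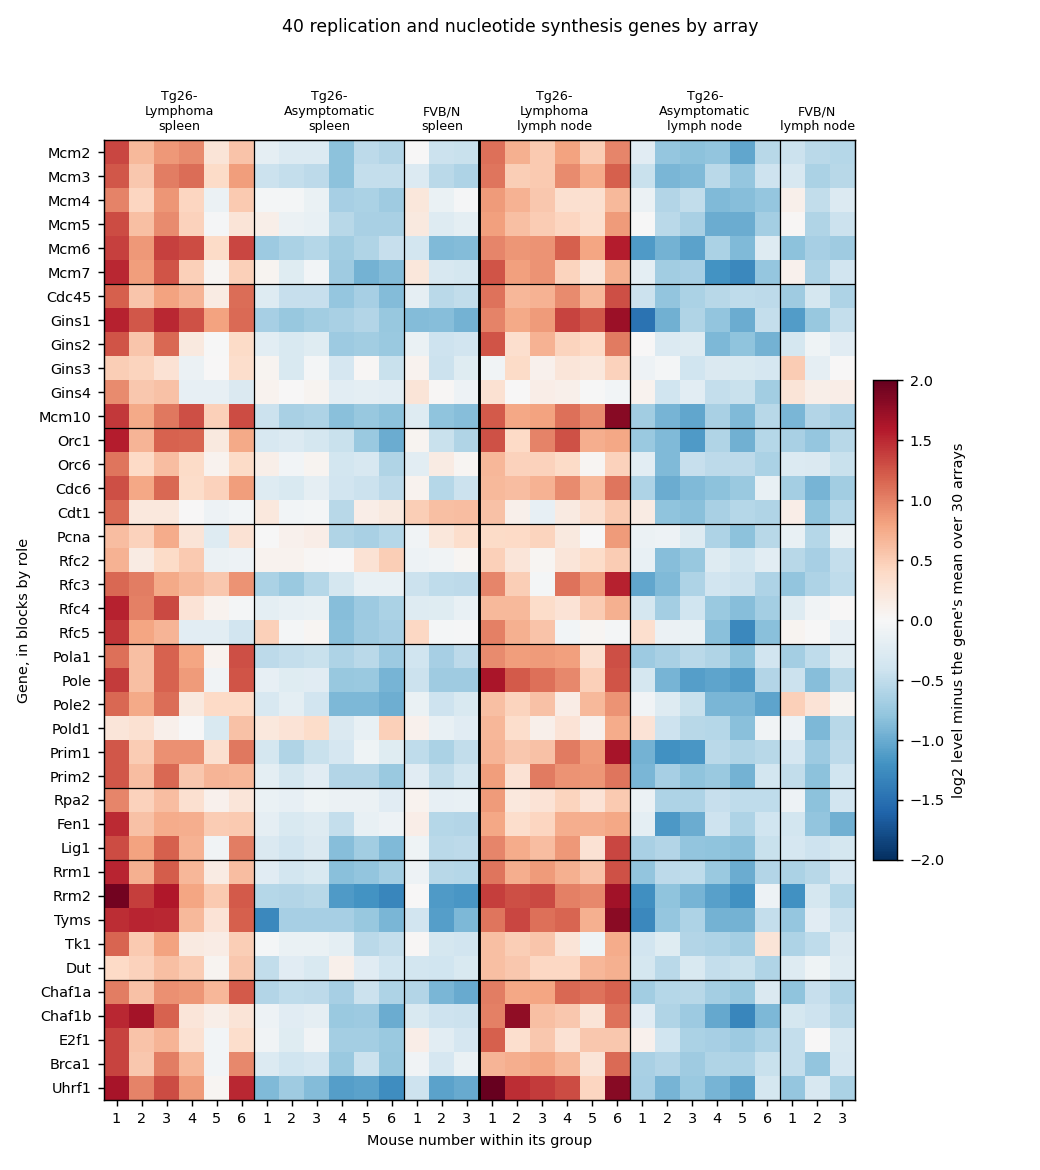
Log2 level of each of the 40 genes (rows, in blocks by role) in each of the 30 arrays (columns, with lymphoma, asymptomatic and FVB/N mice from left to right in spleen and then in lymph node), coloured by the difference from the gene's mean over all arrays (red above it, blue below). The lymphoma columns are above the mean for most genes, palest in the spleen of mouse 5, while Rfc2 and Pold1 show little contrast between lymphoma and asymptomatic spleens.

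Lymphoma mice were also set against FVB/N mice, which carry no transgene. In spleen 34 of the 40 genes rose and none fell, where 7.1% of all genes rose, with a median of 1.07. The 6 genes that did not pass were Cdt1, Gins3, Gins4, Pcna, Pold1 and Rfc2. In lymph node 34 rose and none fell, against 8.59% of all genes, with a median of 1.15. Here Cdt1, Gins3, Gins4, Pcna, Pold1 and Pole2 did not pass. Gins3 differed by -0.07 ± 0.19 (adjusted p = 0.874) and Pole2 by 0.58 ± 0.21 (adjusted p = 0.0669) from FVB/N nodes. Chaf1a rose by 1.67 ± 0.16 in spleen and 1.70 ± 0.18 in lymph node, Gins1 by 1.90 ± 0.22 and 2.11 ± 0.24, and Rrm2 by 2.10 ± 0.29 and 2.49 ± 0.31. The lymphoma mice here are those of the comparison with asymptomatic mice, so the 2 sets of rises share their lymphoma samples.

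Asymptomatic mice were set against FVB/N mice to see what the transgene goes with in the absence of lymphoma, and almost no difference passed the test. Between asymptomatic and FVB/N spleens 0 of the 40 genes passed limma's test, where 0.617% of all genes did in either direction, and 4 had an unadjusted p under 0.05, against 7.54% of all genes. These were Pole (0.39 ± 0.15), Cdt1 (-0.42 ± 0.17), Chaf1a (0.28 ± 0.13) and Pold1 (0.38 ± 0.18). In lymph node 1 gene passed, and 11 had an unadjusted p under 0.05, each of them lower in asymptomatic nodes, where 7.02% of all genes were. The median difference over the 40 genes was -0.23 in lymph node, against 0.02 over all genes. The gene that passed was Prim1, which fell by 0.68 ± 0.16 (SE, adjusted p = 0.033), where 0.592% of all genes fell. Its measured levels were 6.97, 7.41 and 7.65 in asymptomatic nodes, against 7.86, 7.46 and 7.67 in FVB/N nodes. These ranges overlapped, the measured means differed by -0.31, and Prim1 passed in only 3 of 22 other settings. A p that misses the threshold here, with 3 FVB/N mice in 1 batch, does not show equal levels.

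The tissues were compared within each group. In lymphoma mice 0 of the 40 genes differed between lymph node and spleen, where 0.0552% of all genes did in either direction by limma's test, and 1, Uhrf1, had an unadjusted p under 0.05 (0.34 ± 0.15, adjusted p = 0.547), against 8.33% of all genes. In asymptomatic mice 3 genes fell in lymph node relative to spleen and none rose, where 2.26% of all genes fell. These were Rfc2 (-0.63 ± 0.18, adjusted p = 0.0374), Prim1 (-0.60 ± 0.18, adjusted p = 0.0443) and Orc6 (-0.49 ± 0.13, adjusted p = 0.0224). Of 20 alternatives, Rfc2 passed under 8, Prim1 under 9 and Orc6 under 5. At an unadjusted p under 0.05, 18 of the 40 genes were lower in asymptomatic nodes and none higher, where 8.77% of all genes were lower, and the median difference was -0.35 over the 40 genes and 0 over all genes. Node and spleen of 1 animal form a pair, and with mouse as a block 7 genes fell, Cdt1, Mcm7, Pold1 and Rpa2 joining these 3. None fell without the arrays that carried neighbouring-tissue transcripts, a comparison left with 1 asymptomatic node. In FVB/N mice 0 genes differed by limma, where 4.27% of all genes did, and 3 had an unadjusted p under 0.05, against 16.8% of all genes. With mouse as a block Cdt1 fell in FVB/N nodes by 0.99 ± 0.23 (adjusted p = 0.0162).

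Whether the rise in lymphoma over asymptomatic mice differed between the tissues was tested gene by gene. The node rise minus the spleen rise had a median of 0.38 over the 40 genes, 0 genes passed limma's test where 0.572% of all genes did, and 14 had an unadjusted p under 0.05 with a larger node rise, against 5.66% of all genes. With mouse as a block 2 genes passed, Pold1 (0.73 ± 0.16, adjusted p = 0.0179) and Rfc2 (0.64 ± 0.18, adjusted p = 0.0481). Within single lymphoma mice the direction divided by batch. The median of node minus spleen over the 40 genes was -0.35, -0.03 and -0.34 in mice 1 to 3 of batch A, and 0.09, 0.37 and 0.31 in mice 4 to 6 of batch B. The number of genes higher in the node was 5, 18 and 2 in batch A and 25, 38 and 38 in batch B. Among asymptomatic mice the medians were -0.16, -0.32 and -0.40 in batch A and -0.07, -0.28 and 0.08 in batch B, and in FVB/N mice they were -0.26, -0.04 and 0.03.

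**Figure D4:**
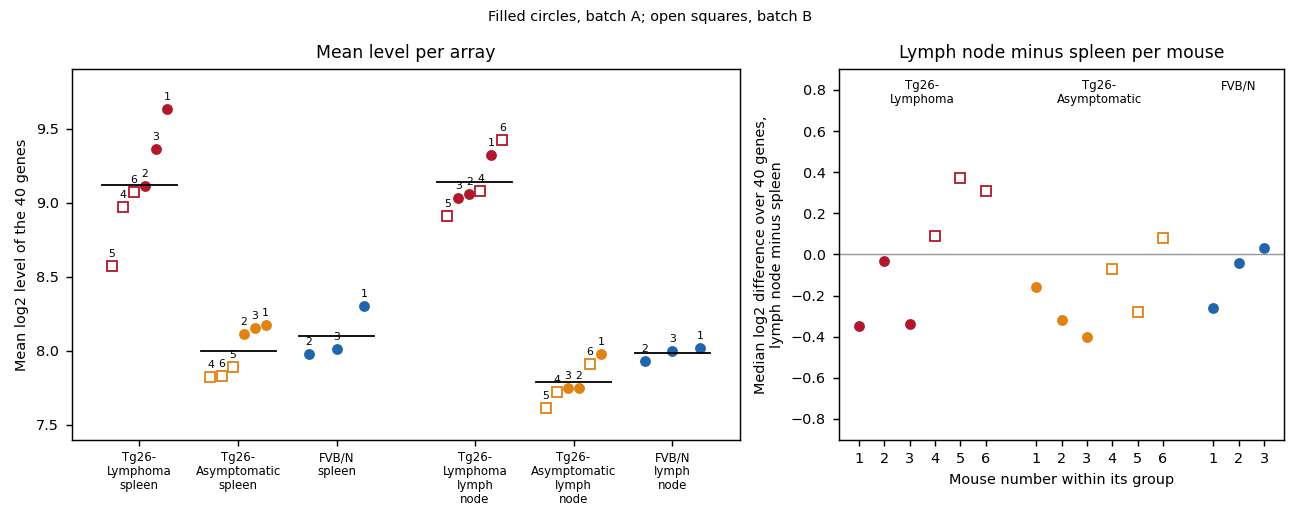
Left, the mean log2 level of the 40 genes in each array (y axis) by group and tissue, with the mouse number above each point and the group mean as a line; right, the median over the 40 genes of lymph node minus spleen (y axis, log2) for each mouse. The lymphoma arrays lie at 8.57 to 9.63 in spleen and 8.91 to 9.42 in lymph node, above all others, and the 3 lymphoma mice of batch A lie below 0 on the right while those of batch B lie above 0.

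Other genes of the pathway were read from 5 further lists, of which 92 of 99 genes were measured. In lymphoma against asymptomatic mice, 54 of the 92 rose and 3 fell in spleen, with a median difference of 0.48, where 8.58% of all genes rose and 7.25% fell. In lymph node 62 rose and 6 fell, with a median of 0.71, where 11.6% of all genes rose and 12.5% fell. Of 14 further origin and firing factors, 7 rose in spleen and 9 in lymph node, and none fell. The treslin gene Ticrr, which helps to recruit Cdc45, rose by 2.01 ± 0.20 in spleen and 2.33 ± 0.22 in lymph node. Dbf4, the activating subunit of the Cdc7 kinase, rose by 1.26 ± 0.16 and 1.53 ± 0.18, and Topbp1, a firing factor, by 0.75 ± 0.11 and 1.08 ± 0.12. Of 22 other fork proteins 12 rose in spleen and 18 in lymph node. Top2a, the topoisomerase that untangles copied DNA, rose by 2.03 ± 0.25 and 2.71 ± 0.27, and the nuclease Dna2 by 0.85 ± 0.12 and 2.03 ± 0.13. Tipin, of the fork protection complex, rose by 1.50 ± 0.15 in lymph node. Pole4, a small polymerase epsilon subunit, fell by 0.47 ± 0.10 in spleen and 0.38 ± 0.11 in lymph node.

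Nucleotide enzymes outside the set were less uniform. Of 20 measured, 9 rose and 1 fell in spleen, and 9 rose and 3 fell in lymph node. Dck, the deoxycytidine salvage kinase, rose by 1.10 ± 0.13 in spleen and 1.80 ± 0.14 in lymph node. Umps, of pyrimidine synthesis, rose by 0.60 ± 0.12 and 0.83 ± 0.13. The mitochondrial thymidine kinase Tk2 fell by 0.64 ± 0.10 in spleen and 0.51 ± 0.11 in lymph node. Samhd1, which breaks down deoxynucleotides, fell by 0.82 ± 0.18 in lymph node (adjusted p = 0.00122), and the CTP synthase gene Ctps2 by 0.42 ± 0.11 there, where the measured means differed by -0.14.

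Of 22 measured genes of E2F and S phase entry, 15 rose and 1 fell in spleen, and 14 rose and 2 fell in lymph node. Cdk2 rose by 0.99 ± 0.10 in spleen and 1.22 ± 0.11 in lymph node, and the D-type cyclin gene Ccnd3 by 1.17 ± 0.14 in spleen. E2f8, a repressive E2F, rose by 2.91 ± 0.25 in lymph node. The member that fell in both tissues was Rbl2, whose p130 protein holds E2F targets silent in resting cells, by 0.78 ± 0.11 in spleen and 0.78 ± 0.12 in lymph node. The cell cycle inhibitor gene Cdkn1b fell by 0.35 ± 0.13 in lymph node (adjusted p = 0.0467), with measured means that differed by -0.06. Of 14 measured genes of replication-coupled chromatin and repair, 11 rose in spleen and 12 in lymph node, and none fell. The helicase gene Blm rose by 1.50 ± 0.15 and 2.0 ± 0.17, the nuclease gene Exo1 by 1.52 ± 0.18 in spleen, and Fancd2, of interstrand crosslink repair, by 1.94 ± 0.21 in lymph node.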

How the data were processed

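The 30 arrays measured total RNA of spleen or lymph node. The values used are the log2 levels deposited by the authors, who per the series design text normalised the probes by fRMA, which uses parameters frozen from other arrays. Software versions are not given in the sources used here, and scanner files were not used here. Normalised values ran from 2.07 to 14.43, with array medians of 6.67 to 6.89. The number of arrays limits the precision.

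Of 35556 probe sets, 21789 had 1 gene symbol in the platform annotation, 1621 had several and 12146 were not listed. Symbols of 21698 probe sets matched RefSeq, and 19938 genes remained. For 999 genes with several probe sets, the one with the highest mean was used. All 19938 genes were fitted with limma 3.58.1 in R 4.3.3, with 6 groups and 6 surrogate variables computed in base R (20 permutations at p under 0.1, 5 iterations), after the model named in the series design text. Benjamini-Hochberg adjusted p-values under 0.05 over all genes counted as passed. Exact tests used SciPy 1.17.1 in Python 3.11.15. Limma p-values rest on the spread between arrays that the groups and surrogate variables leave. Except in fits with mouse as a block, node and spleen of 1 mouse entered as separate arrays. With mouse as a random block, the fitted correlation within a mouse was 0.289. The exact tests rest on the spread between mice, since each mouse gave 1 node.

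The members, lists and tests were chosen with earlier results of these data known. In each role the genes with the smallest and the largest adjusted p in spleen are given in full, with any gene that did not pass there or that passed in another comparison. Of the further pathway lists, the 2 with the smallest adjusted p in each direction are named, with those that fell. Promoter stretches are shown only for matches before the start.

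Mouse numbers come from the labels. Same-numbered lymphoma and asymptomatic arrays come from different mice that share a batch. Their deviations correlated at 0.23 to 0.50 over genes in spleen and at 0.08 to 0.24 in lymph node. Arrays with different numbers were not compared, so a pairing by number cannot be told from the shared batch. Node and spleen of 1 mouse are paired by animal.

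On simulated levels for 19938 genes, the comparison of lymphoma with asymptomatic spleens recovered 38.8% of genes changed by 0.5 (log2), 91% of those changed by 1 and 97% of those changed by 1.5, with 5 false calls. For lymph node the shares were 28.4%, 82.1% and 95.5%, with 12 false calls. The simulation changed 67, 67 and 66 genes by 0.5, 1 and 1.5, with residuals drawn independently for each array. Its levels came from the same surrogate-variable model that was then refitted. In the measured data 1710 genes rose and 1446 fell in spleen, and 2317 and 2483 in lymph node. The shares hold for the simulated setting and were not tested with that many changes. Alternatives were another choice of probe set, normalisation, filter, covariates, blocks and arrays.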

Additional observations from a re-analysis of the deposited data

Results flagged for a closer look

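Over the 40 genes and the 4 groups of 6 mice, 8 of 160 combinations held a mouse far from the others by Dixon's test at the 95% level. Chance flags about 1 in 20 groups, which is the same share. Of the 8 values, 5 came from mouse 1 of a group, 1 from mouse 2 and 2 from mouse 4.

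Cdt1 was flagged in 3 groups. In lymphoma spleens mouse 1 stood at 9.99, against 8.76 to 9.08 in the other 5. In asymptomatic spleens mouse 4 was low at 8.30, against 8.81 to 9.07, and in asymptomatic nodes mouse 1 was high at 9.03, against 8.03 to 8.29. Lymphoma mouse 1 was also high for Fen1 in spleen, at 9.53 against 8.55 to 8.78, and for E2f1 in lymph node, at 8.82 against 7.92 to 8.17. Asymptomatic mouse 1 was high for Rpa2 in lymph node, at 8.46 against 7.95 to 8.11. Prim2 was low in the node of lymphoma mouse 2, at 9.06 against 9.60 to 9.84. Mcm3 was low in the spleen of asymptomatic mouse 4, at 8.06 against 8.35 to 8.45.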

How the results depend on the processing

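Of the 34 genes that rose in lymphoma over asymptomatic spleens, 30 passed under all 26 alternatives, as did 21 of the 38 in lymph node. The fitted difference was above 0 under all alternatives for 37 and 40 of the 40 genes. Leaving out 1 mouse at a time gave 34 to 38 genes in spleen and 34 to 39 in lymph node, and 29 to 38 and 32 to 36 against FVB/N mice. The node count was 21 without the arrays with neighbouring-tissue transcripts, which leaves 1 asymptomatic node. In lymph node 11 genes lost the call only there (Chaf1b, E2f1, Fen1, Gins2, Mcm4, Mcm5, Mcm7, Orc6, Pole2, Rfc4 and Rpa2), and in spleen Dut, Rpa2 and Tk1 only within batch B. Prim1 in asymptomatic against FVB/N nodes was lost (count 0) with probe sets averaged, the dim genes filtered out, no surrogate variables, 3 of them, batch, batch with neighbouring-tissue covariates, either block, only the arrays compared, batch A, the neighbouring-tissue arrays left out or the spleen array of lymphoma mouse 4 left out, and 0 to 1 passed with a mouse left out. The causes were not tested.

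Node against spleen in FVB/N mice gave 2 genes with the dim genes filtered out, and 1 with no surrogate variables, with batch, with mouse as a random or replicate block, and in batch A. In asymptomatic mice it gave 6 with the filter and with the random block, and 7 with the replicate block. It gave 1 with no surrogate variables or 3 of them. The count was 0 with batch and neighbouring-tissue covariates, in batch B and without the spleen array of lymphoma mouse 4. With a mouse left out it was 0 (without asymptomatic mouse 2, 4 or 5) to 6 (without mouse 6). In lymphoma mice batch A gave 1 gene, Rfc4. The tissue difference of the rise gave 2 genes with either block. With mouse number as a replicate block, 37 genes rose in spleen and 40 in lymph node over asymptomatic mice. This block changed no call beyond those named in the report.

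Differences near 0 changed sign. Pold1 in spleen was 0.01 with no surrogate variables, with batch, with either block, with only the arrays compared and without the spleen array of lymphoma mouse 4, 0.06 with 3 surrogate variables, 0.08 in batch B, and -0.16 to 0.21 with a mouse left out. Rfc2 in spleen was -0.16 in batch B and -0.10 to 0.22 with a mouse left out.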
